A study of Rattus norvegicus with 24 samples.

Results

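The collagen and laminin chains were the 32 of 12187 genes in the deposited RNA-seq table whose symbol is Col, a number, a and a number, or Lam, a letter from a to c and a number. They comprised 9 fibrillar collagen chains, 16 chains of other collagens and 7 laminin chains. The study profiled Sprague-Dawley rat neural stem cells and the cells made from them by differentiation, with or without vitamin C. The groups were differentiated cells given vitamin C (VC+), differentiated cells without it (VC-) and undifferentiated neural stem cells (D0), with 2 RNA-seq libraries each. Replicate 1 of VC+ and VC- carries a D4 label and replicate 2 a D5 label, so the replicate number and this label cannot be told apart in differentiated cells. The labels do not say whether replicates came from separate cultures or animals, and all p-values below reflect only how much these libraries vary. The source tissue and the dose of vitamin C are not given in the sources used here. The other 18 samples of the series, and partner chains such as Col1a2, Col4a2, Col6a1 and Lamb1, were not analysed here.

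Collagens are trimers of chains wound into a triple helix. Vitamin C is a cofactor of the prolyl and lysyl hydroxylases, which hydroxylate these chains in the endoplasmic reticulum. Fibrillar collagens (types I, II, III, V, XI and XXVII here) form the fibrils of connective tissue. In brain they are made largely by fibroblasts of the meninges and blood vessels. Type IV collagen and laminins, which are trimers of an alpha, a beta and a gamma chain, build basement membranes. In the neurogenic niche of the adult forebrain, laminin-rich basement membranes contact neural stem cells, which bind them through integrins.

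Depth followed the replicate number, and levels are given as CPM, reads scaled to a common library size. The genes of the table held 6641721 and 13184601 reads in VC+ replicates 1 and 2, 5372983 and 11210514 in VC-, and 4811094 and 10299321 in D0. A gene with 0 reads may be present at up to 0.140 to 0.378 CPM, the value of 3 reads, which covers counting error only. Within each group, replicates differed by more than 1.5-fold on the log2(CPM + 0.5) scale at 45.0% to 46.5% of the 11823 genes tested. Markers of neural stem cells (Fabp7, Sox2 and 4 others) were present in all 6 libraries and summed to 963 to 1343 CPM in the replicate 2 libraries and 2590 to 2822 CPM in the replicate 1 libraries. The summed level of 8 oligodendrocyte lineage markers was 550 to 728 CPM in replicate 2 and 2082 to 11854 CPM in replicate 1, and that of 10 microglia and macrophage markers was 258 to 694 CPM in replicate 2 and 0.504 to 1.40 CPM in replicate 1. All results below are therefore given per replicate.

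In both replicates, 6 chains had the order VC+ below VC- below D0, and their promoters are shown so that chains of like order can be compared. Promoter sequence was matched for 25 of the 32 chains in RefSeq (build GRCr8, whose coordinates are used here). Each window is the 250 bases before the annotated start of transcription, 5′ to 3′ on the gene's strand. Capitals mark matches on either strand to 4 motifs. They are the TATA box, searched as TATAAA, the CCAAT box, searched by those letters, and the GC box, searched as GGGCGG. The last is the core recognised by hypoxia-inducible factors, whose stability is set by prolyl hydroxylases, searched as ACGTG and also in the form GCGTG.
Col5a3 (chr8:27625949-27626198, - strand): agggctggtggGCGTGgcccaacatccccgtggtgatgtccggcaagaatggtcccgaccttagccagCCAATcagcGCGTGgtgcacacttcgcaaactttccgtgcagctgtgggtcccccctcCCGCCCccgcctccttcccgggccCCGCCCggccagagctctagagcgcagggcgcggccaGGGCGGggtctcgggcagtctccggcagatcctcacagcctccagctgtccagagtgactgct
Lama5 (chr3:187695975-187696224, - strand): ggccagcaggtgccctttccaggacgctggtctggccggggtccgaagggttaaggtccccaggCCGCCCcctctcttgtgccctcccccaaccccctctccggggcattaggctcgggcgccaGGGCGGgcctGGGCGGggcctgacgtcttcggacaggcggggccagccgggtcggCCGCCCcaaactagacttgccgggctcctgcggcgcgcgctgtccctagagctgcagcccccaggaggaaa
Lama1 (chr9:115139298-115139547, + strand): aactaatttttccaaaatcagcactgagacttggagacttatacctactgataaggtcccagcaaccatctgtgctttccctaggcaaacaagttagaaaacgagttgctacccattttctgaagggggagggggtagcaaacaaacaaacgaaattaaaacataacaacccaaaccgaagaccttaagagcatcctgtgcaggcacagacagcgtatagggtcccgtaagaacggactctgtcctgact
Col4a1 (chr16:84885347-84885596, + strand): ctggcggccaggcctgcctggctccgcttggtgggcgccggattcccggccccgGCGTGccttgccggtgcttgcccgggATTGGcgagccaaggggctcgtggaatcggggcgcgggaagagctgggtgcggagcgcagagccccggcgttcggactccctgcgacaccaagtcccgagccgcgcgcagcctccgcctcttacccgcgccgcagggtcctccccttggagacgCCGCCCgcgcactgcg
Col18a1 (chr20:11473395-11473644, + strand): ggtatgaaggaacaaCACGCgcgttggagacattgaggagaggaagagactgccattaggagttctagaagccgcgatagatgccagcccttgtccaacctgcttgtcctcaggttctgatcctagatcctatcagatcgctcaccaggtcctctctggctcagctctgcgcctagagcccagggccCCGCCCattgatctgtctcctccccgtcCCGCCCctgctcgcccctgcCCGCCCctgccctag
Col15a1 (chr5:66297296-66297545, + strand): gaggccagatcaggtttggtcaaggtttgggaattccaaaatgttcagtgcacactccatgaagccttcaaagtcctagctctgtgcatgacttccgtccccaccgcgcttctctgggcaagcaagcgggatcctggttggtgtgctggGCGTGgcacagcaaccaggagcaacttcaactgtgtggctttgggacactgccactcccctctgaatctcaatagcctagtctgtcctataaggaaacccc
The GC box was found in the windows of Col5a3 (3 matches), Lama5 (4), Col4a1 (1) and Col18a1 (3), and not in those of Lama1 and Col15a1. The hypoxia-inducible factor core was found in Col5a3 (2 matches), Col4a1 (1), Col18a1 (1) and Col15a1 (1). Lama1 held none of the 4 motifs. No motif was found in all 6 windows. Over all 25 matched chains the GC box was present in 15 windows (60%), against 30.47% of all 33469 promoters, and the hypoxia-inducible factor core in 11 windows (44%), against 36.7% of all promoters. The CCAAT box was present in 4 windows (16%), against 34.02% of all promoters, and the TATA box in 2 windows (8%), against 12.93%. The median GC content was 62% in the 25 windows and 51.2% in all promoters. Each motif was counted without regard to the others, so matches of different motifs may share bases. A match describes the letters of a window and is not a shown binding site.

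Col4a3 and Col4a4, which encode the alpha-3 and alpha-4 chains of type IV collagen, lie head to head, and their annotated starts are 413 bases apart. Their 250-base windows share 88 bases, shown because the stretch lies between a pair of genes of the same collagen trimer.
Col4a3 and Col4a4 shared bases (chr9:91323740-91323827, + strand): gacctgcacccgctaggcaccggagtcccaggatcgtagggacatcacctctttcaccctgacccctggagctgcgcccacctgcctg
Both genes were near the detection limit in replicate 1, where Col4a3 had 6, 5 and 5 reads and Col4a4 had 1, 0 and 1 reads in VC+, VC- and D0. In replicate 2, Col4a3 had 24.9 CPM in VC+, 17.5 CPM in VC- and 4.53 CPM in D0. In the same libraries Col4a4 had 2.25, 1.40 and 0.788 CPM. The pair therefore had the same order of levels in replicate 2, with stem cells lowest, and no order that could be read in replicate 1.

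Summed over all 32 chains, VC+ libraries held 1869 and 7905 CPM in replicates 1 and 2, VC- libraries 1605 and 11777 CPM, and D0 libraries 3567 and 18412 CPM. Undifferentiated cells had the highest sum in each replicate. VC+ was above VC- in replicate 1 (1.16 times) and below it in replicate 2 (0.671 times). The classes had the same directions. Fibrillar chains stood at 1.02 and 0.656 times the VC- sum in VC+ replicates 1 and 2, other collagens at 1.15 and 0.645 times, and laminins at 1.48 and 0.813 times. In these bulk samples, fewer cells of a type and less RNA per cell cannot be told apart.

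**Figure D1:**
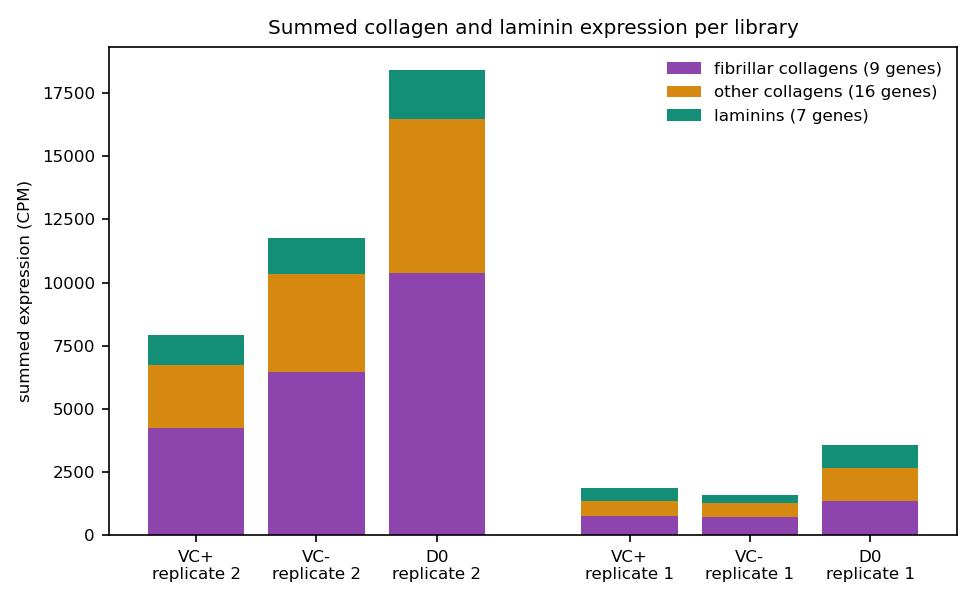
Summed CPM of the 3 classes of chains (stacked bars) in each of the 6 libraries, with replicate 2 on the left and replicate 1 on the right. The bars reach 7905, 11777 and 18412 CPM for VC+, VC- and D0 in replicate 2, and 1869, 1605 and 3567 CPM in replicate 1.

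The composition of the fibrillar class differed between replicates. Col1a1 and Col3a1, the main chains of type I and type III collagen, together made up 72.6%, 73.9% and 77.8% of the fibrillar CPM in VC+, VC- and D0 of replicate 2, against 10.1%, 27.1% and 4.87% in replicate 1. Without this pair the fibrillar sum was 666 and 1158 CPM in VC+, 530.1 and 1684 CPM in VC-, and 1282 and 2306 CPM in D0, in replicates 1 and 2. These shares are of reads, not of molecules, since no gene lengths were used. The ratio of Col1a1 to Col3a1 reads stayed between 1.34 and 2.83 in all 6 libraries (2.02 and 1.34 in VC+, 1.39 and 1.65 in VC-, 1.48 and 2.83 in D0), whereas that of Col5a1 to Col5a2, chains of the same type V trimer, was 0.557, 0.775 and 0.665 in VC+, VC- and D0 of replicate 2 and 0.252, 0.333 and 0.206 in replicate 1. The ratio of Lamc1 to Lamb2, a gamma and a beta chain of laminin, was 0.790 and 0.680 in VC+, 0.749 and 0.812 in VC-, and 0.858 and 1.09 in D0. These 3 pairs were chosen after their values were seen.

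The effect of vitamin C on differentiated cells was addressed by comparing VC+ with VC-. Col5a3, the alpha-3 chain of type V collagen, was lower with vitamin C in both replicates. Col18a1 and Col4a1, basement membrane collagens, and Col1a1 and Col3a1 were also lower in both, while Col2a1 and the 4 measured FACIT collagens, which sit on the surface of fibrils, were higher in both. None of these differences passed the test at an adjusted p of 0.05 in limma, a linear model of log2(CPM + 0.5) that shares its estimate of spread among genes. No gene of the 11823 tested did (0.0%), and 62 of them, Col5a3 among the chains, had an unadjusted p under 0.05. edgeR on the read counts recovered from the CPM also called 0 genes, and 65 reached that unadjusted p. Both fits leave the difference between replicates in the spread, so their lack of calls does not show that vitamin C had no effect. With replicate as a term limma again called 0 genes, and 404 of 11823 had an unadjusted p under 0.05. Among these were 3 chains, Col5a3, Col18a1 and Col11a1. DESeq2 on the recovered counts with that term called 32 genes, Col5a3 and Col18a1 among them.

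Of the 32 chains, 9 were higher in VC+ than in VC- in both replicates, where 30.0% of all genes were, 10 were lower in both, where 26.4% were (these counts include Col4a4, Col13a1 and Col15a1, with 0 to 6 reads in replicate 1), and 13 had opposite directions in the replicates, where 42.1% had. In replicate 1, 20 of 32 chains were higher in VC+ (50.0% of all genes), and in replicate 2, 21 of 32 were lower in VC+ (47.2% of all genes). The median log2 difference of the fibrillar chains was 0.48 in replicate 1 and -0.52 in replicate 2. It was 0.19 and -0.26 for the other collagens, and 0.42 and -0.25 for the laminins, against 0.00 and 0.02 over all genes tested. Over both replicates the medians were -0.06, 0.26 and 0.08, against 0.02 over all genes. Each of these medians crossed 0 when a library was left out. That of fibrillar chains ran from -0.96 without VC- replicate 1 to 1.14 without VC- replicate 2. For other collagens it ran from -1.52 without VC- replicate 1 to 1.47 without VC+ replicate 1. For laminins it ran from -1.05 without VC- replicate 1 to 1.05 without VC- replicate 2. A left-out library unbalances the replicates, so these values also hold part of the replicate difference.

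**Figure D2:**
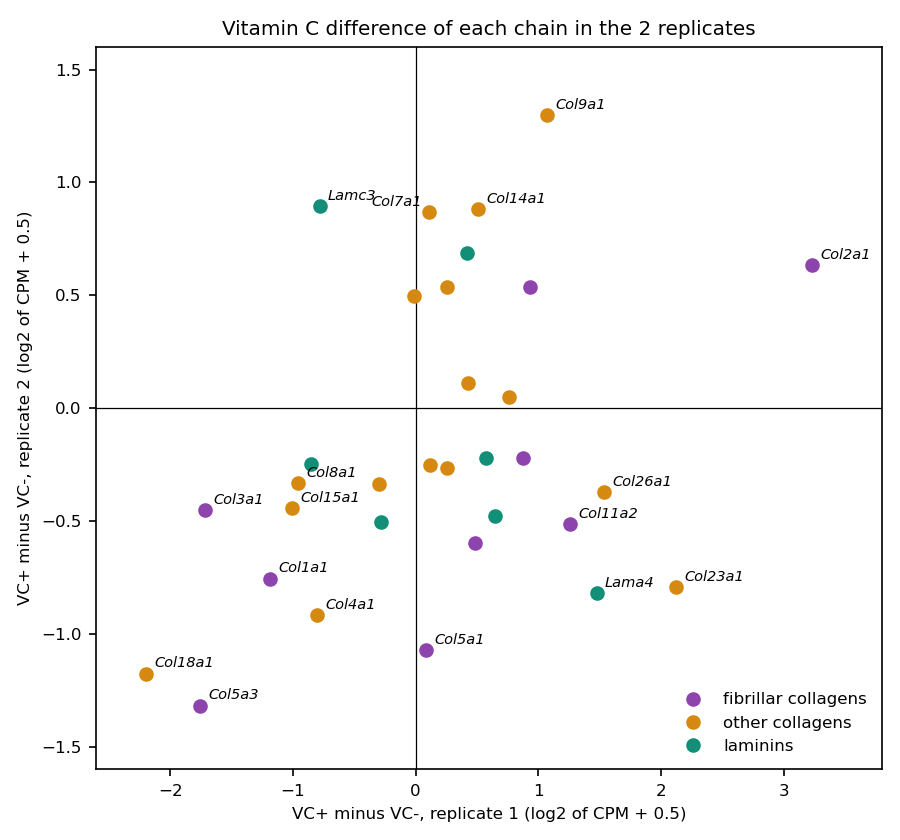
Difference between VC+ and VC- in log2(CPM + 0.5) for each of the 32 chains, in replicate 1 (horizontal axis) and replicate 2 (vertical axis), coloured by class, with the chains of larger differences named. The upper right holds 9 chains and the lower left 10, and 13 lie at the upper left or lower right.

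Col5a3 had 43.7 and 49.7 CPM in VC+ replicates 1 and 2, against 149 and 125 CPM in VC-. Both VC+ libraries were lower than both VC- libraries, which was so for 7.82% of all genes. The ratio of VC+ to VC- was 0.294 in replicate 1 and 0.399 in replicate 2. The log2 difference was -1.54 (SE 0.26), with a limma adjusted p of 1.00. DESeq2 on the recovered reads gave -1.55 and an adjusted p of 0.00168, and with replicate as a term it gave an adjusted p of 0.000435; Col5a3 was 1 of the 3 genes (0.0254%) that DESeq2 called lower. Over 16 alternatives the log2 difference lay between -1.66 and -1.41 and the adjusted p between 0.000435 and 1.00. Col5a3 was also among the chains whose replicates lay closest together, since its ratio of replicate 2 to replicate 1 was 1.14 in VC+ and 0.839 in VC-.

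Col1a1 had 49.9 and 1759 CPM in VC+, against 115 and 2969 CPM in VC-. VC+ stood at 0.436 times VC- in replicate 1 and 0.592 times in replicate 2, and the groups overlapped, since both replicate 2 libraries lay above both replicate 1 libraries. Col3a1 had 24.7 and 1316 CPM in VC+, against 82.3 and 1801 CPM in VC-, and overlapped likewise. The sum of 15 fibroblast and meningeal markers, such as Fn1 and Igf2, was 223 and 1805 CPM in VC+ and 165 and 2828 CPM in VC-. The sum was thus higher in VC+ in replicate 1 and lower in replicate 2. Counted singly, 9 of the 15 markers were lower in VC+ in replicate 1 and 5 were higher. In both replicates 8 were lower (26.4% of all genes) and 2 were higher (30.0% of all genes). The sum of 6 astrocyte markers was 4373 and 5747 CPM in VC+ and 1162 and 1923 CPM in VC-, and 5 of the 6 had both VC+ libraries above both VC- libraries (8.15% of all genes). The part of these markers in the levels of Col1a1, Col3a1 and the other chains was not tested.

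Type V chains other than Col5a3 had no direction shared by the replicates. Col5a1 had 61.9 and 225 CPM in VC+, against 58.5 and 475 CPM in VC-. Col5a2 had 246 and 405 CPM in VC+, against 176 and 613 CPM in VC-. VC+ was thus above VC- in replicate 1 and below it in replicate 2 for both chains.

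Col2a1, the chain of type II collagen of cartilage and of the vitreous, had 30.4 and 29.9 CPM in VC+, against 2.79 and 19.1 CPM in VC-. It was the only chain whose VC+ libraries both lay above both VC- libraries, which was so for 8.15% of all genes. The ratio was 10.9 in replicate 1 and 1.56 in replicate 2, so most of the difference came from the low VC- replicate 1, which had 24 reads. The log2 difference was 1.93 (SE 1.49), with a limma adjusted p of 1.00 and a range over 16 alternatives of 0.64 to 3.22. In D0, Col2a1 had 4.92 and 80.6 CPM, so VC+ was above D0 in replicate 1 and below it in replicate 2. Col11a1, which with Col2a1 forms cartilage fibrils, had 61.7 and 167 CPM in VC+, against 32.1 and 115 CPM in VC-. Its groups overlapped. Col11a2 had 63.7 and 40.5 CPM in VC+, against 26.4 and 58.0 CPM in VC-, and its replicates had opposite directions. Col27a1, a fibrillar collagen of cartilage, had 158 and 240.0 CPM in VC+, against 86.0 and 280.0 CPM in VC-, again in opposite directions.

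Among basement membrane collagens, Col18a1, a multiplexin whose protein releases the fragment endostatin, had 2.20 and 358 CPM in VC+, against 11.9 and 809 CPM in VC-. The ratio was 0.186 in replicate 1 and 0.442 in replicate 2, and the groups overlapped. Limma with replicate as a term gave an adjusted p of 1.00, while DESeq2 with that term gave -1.67 and an adjusted p of 0.0343. With Col5a3 it was among the 9 genes (0.0761%) that this paired DESeq2 fit called lower. Col4a1, the alpha-1 chain of type IV collagen, had 78.1 and 863 CPM in VC+, against 137 and 1633 CPM in VC-, or 0.571 and 0.529 times. Col15a1, the other multiplexin, had 1 and 41 reads in VC+ (0.0957 and 1.92 CPM), against 6 and 52 reads in VC- (0.698 and 2.79 CPM). All 3 chains had lower values in VC+ in each replicate without separating the groups, and the replicate 1 value of Col15a1 in VC+ is a single read.

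The FACIT collagens were the only subclass of 3 or more chains in which every member was higher in VC+ in both replicates. Col16a1 had 421 and 236 CPM in VC+, against 313 and 218 CPM in VC-. Col9a2 had 33.1 and 52.7 CPM in VC+, against 19.3 and 50.9 CPM in VC-. Both differences were small in replicate 2, where the ratios were 1.08 and 1.03. Col9a1, a partner of Col9a2 in type IX collagen, had 6.89 and 1.92 CPM in VC+, against 3.02 and 0.484 CPM in VC-. Col14a1 had 2.20 and 8.15 CPM in VC+, against 1.40 and 4.19 CPM in VC-. The groups of all 4 chains overlapped, and the subclass is described here without a test.

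The transmembrane collagens did not share a direction. Col23a1 had 21.4 and 64.6 CPM in VC+, against 4.53 and 112 CPM in VC-, so that VC+ was 4.73 times VC- in replicate 1 and 0.575 times in replicate 2. Col13a1 had 1 and 891 reads in VC+ (0.0957 and 41.7 CPM), against 2 and 983 reads in VC- (0.233 and 52.8 CPM). Col7a1, the chain of the anchoring fibrils under epithelia, had 5.07 and 67.4 CPM in VC+, against 4.65 and 36.8 CPM in VC-. Col8a1, a short-chain collagen, had 0.478 and 5.62 CPM in VC+, against 1.40 and 7.20 CPM in VC-. Of these 4 chains, Col8a1 was lower and Col7a1 higher with vitamin C in both replicates, and the reads of Col13a1 in replicate 1 were too few to give a direction. Col6a2, a chain of the beaded filaments of type VI collagen, had 32.7 and 724 CPM in VC+, against 27.3 and 872 CPM in VC-. Col26a1 had 2.30 and 55.3 CPM in VC+, against 0.465 and 71.7 CPM in VC-. Col6a4 had 0.930 to 1.05 CPM in replicate 1 of the 3 groups and 2.43 to 3.28 CPM in replicate 2.

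Among laminins, the alpha chains Lama5 and Lama1 were lower with vitamin C in both replicates. Lama5 had 21.5 and 96.5 CPM in VC+, against 39.2 and 115 CPM in VC-. Lama1 had 2.01 and 70.7 CPM in VC+, against 2.56 and 101 CPM in VC-. The Lama1 values of replicate 1 rest on 21 and 22 reads, and the groups of both chains overlapped. Lama4, an alpha chain of vascular basement membranes, had 59.7 and 82.0 CPM in VC+, against 21.2 and 145 CPM in VC-, in opposite directions. The beta chain Lamb2 had 244 and 477 CPM in VC+, against 164 and 557 CPM in VC-. Lamc1, the gamma chain of most laminins, had 193 and 324 CPM in VC+, against 123 and 452 CPM in VC-. Both were higher in VC+ in replicate 1 and lower in replicate 2. Lamc3 had 0.670 and 111 CPM in VC+, against 1.51 and 59.6 CPM in VC-, in opposite directions.

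**Figure D3:**
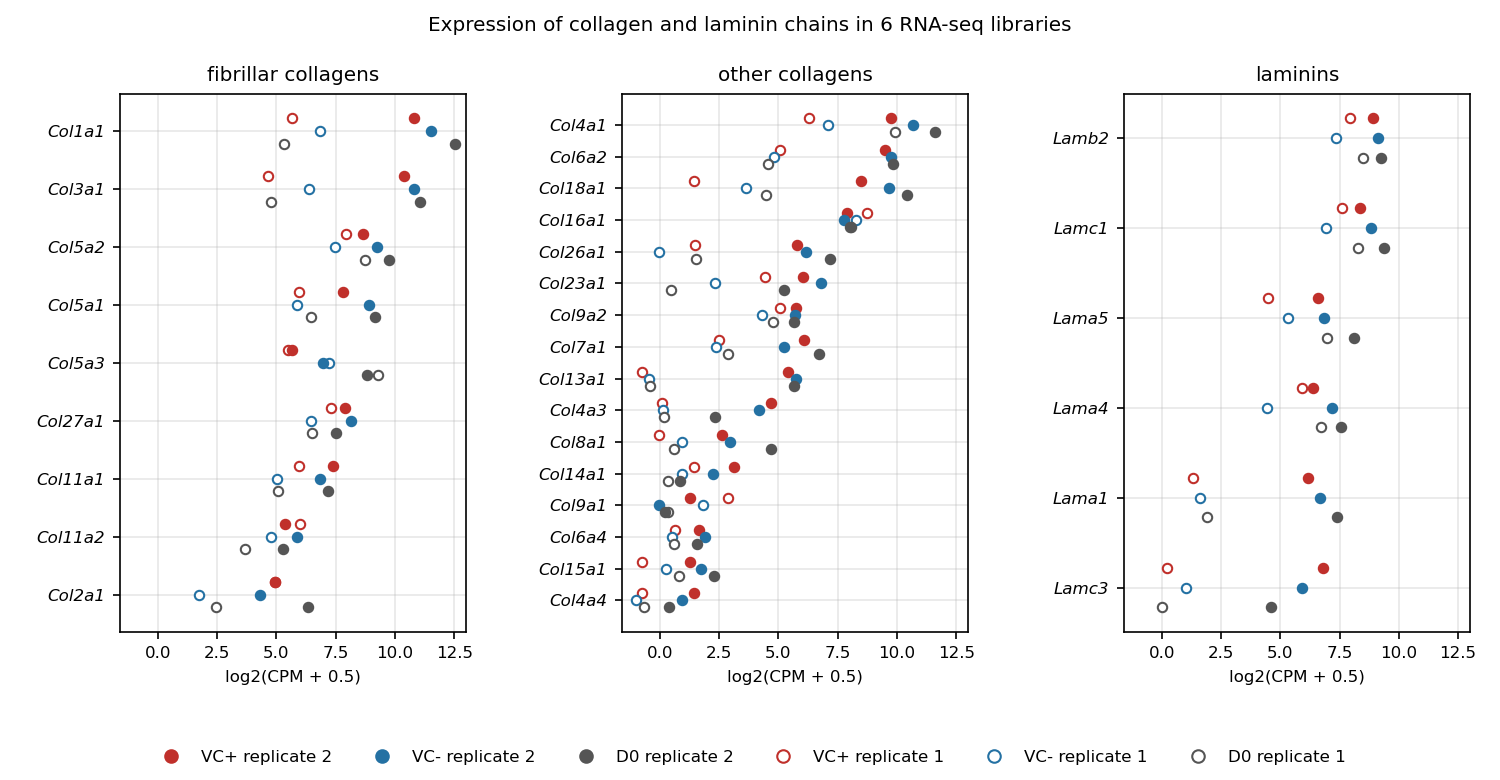
Expression of the chains as log2(CPM + 0.5) in the 6 libraries, by class; filled points are replicate 2, open points replicate 1, red VC+, blue VC- and grey D0. For Col1a1, Col3a1, Col6a2, Col18a1, Col13a1 and Lama1 the filled and open points form separate clusters, while for Col5a3 they are paired by group, at 49.7 and 43.7 CPM in VC+ and 451 and 625 CPM in D0.

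Differentiation without vitamin C was addressed by comparing VC- with D0. In both replicates 6 of 7 laminin chains had lower values in VC- than in D0, as did Col5a1, Col5a2 and Col5a3, while Lamc3 had higher values. None of these chains passed limma. Over all 32 chains, 16 were lower in both replicates (29.5% of all genes) and 4 were higher in both (28.6% of all genes). The 4 were Col11a2, Col14a1, Col23a1 and Lamc3. Limma called 0 of 11823 genes (0.0%), and 382 had an unadjusted p under 0.05, of which Col5a3 was the only chain; edgeR called none either (0 genes), and 382 reached that unadjusted p.

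The median log2 difference of the laminins was -1.12 in replicate 1 and -0.56 in replicate 2, against -0.005 and 0.01 over all genes. It was -0.07 and -0.30 for the fibrillar chains, and -0.07 and -0.15 for the other collagens. Over both replicates the medians were -0.62, -0.17 and 0.01, against 0.01 over all genes. Leaving out VC- replicate 1 moved the laminin median to 0.05, that of the fibrillar chains to 1.08 and that of the other collagens to 0.96. Leaving out D0 replicate 2 moved the medians to -0.24, 0.88 and 1.07 in the same order of classes. Without D0 replicate 1 they were -1.502, -1.72 and -0.98, and without VC- replicate 2 they were -1.88, -1.78 and -1.22. These fits hold no replicate term, so a left-out library unbalances the replicates and the medians take in part of the replicate difference.

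Col5a3 had 149 and 125 CPM in VC-, against 625 and 451 CPM in D0. The groups did not overlap, as for 13.2% of all genes in the downward direction, and VC- stood at 0.238 and 0.277 times D0. The log2 difference was -1.96 (SE 0.26), with a limma adjusted p of 1.00, a range over 16 alternatives of -2.19 to -1.72 and adjusted p between 3.07e-08 and 1.00. Col5a3 was among the 50 genes (0.423%) that DESeq2 called lower. Lama5 had 39.2 and 115 CPM in VC-, against 126 and 277 CPM in D0. It was the other chain with separate groups in this direction. DESeq2 without a replicate term did not call it, and with that term gave an adjusted p of 0.00245, among 457 genes called.

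Col4a1 had 137 and 1633 CPM in VC-, against 971 and 3115 CPM in D0, or 0.141 times in replicate 1 and 0.524 times in replicate 2. The groups overlapped through the high replicate 2 of VC-. DESeq2 with replicate as a term gave Col4a1 an adjusted p of 0.00605, and without that term did not call it. Lama4 had 21.2 and 145 CPM in VC-, against 106 and 186 CPM in D0. Its log2 difference over both replicates, -1.33, became 0.05 without VC- replicate 1, which leaves the replicates unbalanced. Lamb2 had 164 and 557 CPM in VC-, against 356 and 611 CPM in D0, and Lamc1 had 123 and 452 CPM in VC-, against 306 and 669 CPM in D0. Both were lower in VC- in each replicate, more so in replicate 1.

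Col1a1 and Col3a1 went in opposite directions in the replicates. Col1a1 had 115 and 2969 CPM in VC-, against 39.1 and 5968 CPM in D0, so that VC- was 2.93 times D0 in replicate 1 and 0.498 times in replicate 2. Col3a1 had 82.3 and 1801 CPM in VC-, against 26.5 and 2108 CPM in D0. The sum of the fibroblast and meningeal markers was 165 and 2828 CPM in VC-, against 134 and 2464 CPM in D0. Of these 15 markers, 4 were higher in VC- in both replicates (28.6% of all genes) and 3 lower in both (29.5% of all genes). The part of these markers in the values of Col1a1 and Col3a1 was not tested.

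Col14a1, whose product binds to fibrils and is found in dense connective tissue, had 1.40 and 4.19 CPM in VC-, against 0.757 and 1.31 CPM in D0. It was the only chain with both VC- libraries above both D0 libraries (13.8% of all genes). Col23a1 had 4.53 and 112 CPM in VC-, against 0.883 and 36.9 CPM in D0, or 5.14 and 3.04 times, with overlapping groups. Its log2 difference of 1.73 over both replicates became -0.65 without D0 replicate 1 and -0.52 without VC- replicate 2. Both of these fits leave the replicates unbalanced. Lamc3, a gamma chain found in the nervous system and retina, had 1.51 and 59.6 CPM in VC-, against 0.504 and 23.9 CPM in D0. Col11a2 had 26.4 and 58.0 CPM in VC-, against 12.1 and 38.8 CPM in D0. All 3 overlapped between groups.

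Differentiation with vitamin C was addressed by comparing VC+ with D0; this comparison shares its D0 libraries with the one above and its VC+ libraries with the vitamin C comparison. Col5a3, Lama5, Lama4, Col4a1 and Col5a2 had separate groups with VC+ lower (13.2% of all genes), and Col11a2, Col14a1 and Col9a1 had separate groups with VC+ higher (14.2% of all genes). Of the 32 chains, 16 were lower in both replicates (29.0% of all genes) and 9 were higher in both (28.6% of all genes). Limma called 0 of 11823 genes (0.0%), and 507 had an unadjusted p under 0.05, Col5a3 alone among the chains; edgeR called 0 genes, and 515 reached that unadjusted p.

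Col5a3 had 43.7 and 49.7 CPM in VC+, against 625 and 451 CPM in D0, or 0.0700 and 0.110 times. The log2 difference was -3.50 (SE 0.26), with a limma adjusted p of 0.228. DESeq2 gave an adjusted p of 1.62e-29, and Col5a3 was among the 79 genes (0.668%) that it called lower. Over 16 alternatives the log2 difference lay between -3.73 and -3.26 and the adjusted p between 1.62e-29 and 1.00. Lama5 had 21.5 and 96.5 CPM in VC+, against 126 and 277 CPM in D0. Its log2 difference was -2.02 (SE 0.92), with a limma adjusted p of 1.00. Over 16 alternatives it ranged from -3.09 to -0.95, with an adjusted p between 3.00e-06 and 1.00. The value nearest 0 came from leaving out VC+ replicate 1. Col4a1 had 78.1 and 863 CPM in VC+, against 971 and 3115 CPM in D0, or 0.0805 times in replicate 1 and 0.277 times in replicate 2. Its log2 difference was -2.74 (SE 1.67), with a limma adjusted p of 1.00. It ranged from -4.47 without VC+ replicate 2 to -1.01 without VC+ replicate 1, and the adjusted p over 16 alternatives lay between 3.04e-06 and 1.00. For both chains the only alternative that passed the threshold was DESeq2 with replicate as a term.

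Among chains higher in VC+ than in D0, Col9a1 had 6.89 and 1.92 CPM in VC+, against 0.757 and 0.657 CPM in D0. Col14a1 had 2.20 and 8.15 CPM in VC+, against 0.757 and 1.31 CPM in D0. The D0 values of these FACIT chains rest on 6 and 10 reads of Col9a1 and 6 and 20 reads of Col14a1. Col11a2 had 63.7 and 40.5 CPM in VC+, against 12.1 and 38.8 CPM in D0, with almost all of the difference in replicate 1, where VC+ was 5.26 times D0 against 1.04 times in replicate 2. The median log2 difference of the laminins was -0.59 in replicate 1 and -1.04 in replicate 2, against 0.00 and 0.01 over all genes. It was 0.35 and -1.07 for fibrillar chains and -0.06 and -0.21 for other collagens. Over both replicates the medians were -0.85, -0.39 and 0.08. Without VC+ replicate 1 they became 0.03, 0.88 and 1.15, and without D0 replicate 2 they became -0.06, 1.62 and 1.21. Without D0 replicate 1 they were -1.41, -1.43 and -1.22, and without VC+ replicate 2 they were -1.23, -1.29 and -1.65. Here too a left-out library unbalances the replicates, so these medians take in part of the replicate difference.

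Across the 3 groups, 6 chains were ordered VC+ below VC- below D0 in both replicates, where 6.15% of all genes were, and 1 chain, Col14a1, had the reverse order, where 6.61% were. The 6 were Col5a3, Col4a1, Col18a1, Col15a1, Lama5 and Lama1, whose promoter windows are printed above. They hold 1 fibrillar chain, 3 other collagens and 2 laminin alpha chains. Col18a1 had 2.20 and 358 CPM in VC+, 11.9 and 809 CPM in VC-, and 21.9 and 1381 CPM in D0. In replicate 1 the order of Col15a1 rests on 1, 6 and 10 reads in VC+, VC- and D0, and that of Lama1 on 21, 22 and 26 reads. All but Col5a3 encode chains of basement membranes or of the zone next to them. Other basement membrane chains, namely Col4a3, Col4a4, Lama4, Lamb2, Lamc1 and Lamc3, did not have this order.

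**Figure D4:**
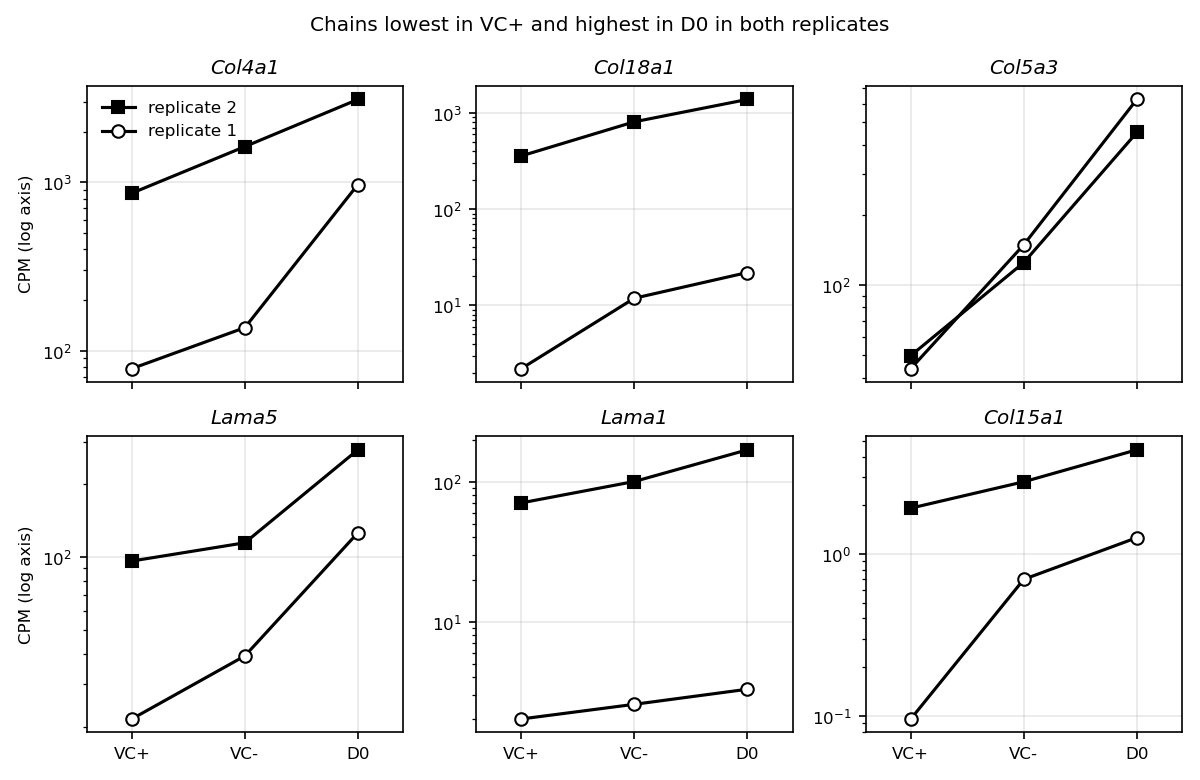
CPM on a log axis (a separate scale in each panel) of the 6 chains ordered VC+ below VC- below D0 in both replicates; filled squares are replicate 2 and open circles replicate 1. The lines of the replicates nearly coincide for Col5a3, at 49.7, 125 and 451 CPM in replicate 2 and 43.7, 149 and 625 CPM in replicate 1, and lie far apart for Col18a1 and Lama1.

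More chains passed the test between replicates than between groups, but the tests are unlike. The replicate test sets 3 libraries against 3 with group as a term. The group tests set 2 against 2 and leave the replicate difference in the spread. The SE of Col1a1 was 0.53 in the replicate test and 3.16 in the group tests. In a fit with group and replicate, limma called 23 of 32 chains higher in replicate 2 (17.4% of all genes) and 0 lower (7.7% of all genes). These were 6 of 9 fibrillar chains, 12 of 16 other collagens and 5 of 7 laminins. The median log2 difference was 1.78, 2.91 and 1.34 in these classes, against -0.01 over all genes. In all 3 groups, 27 chains were higher in replicate 2 (32.5% of all genes) and 2, Col16a1 and Col9a1, were lower (31.8% of all genes). For 22 chains every replicate 2 library lay above every replicate 1 library (24.2% of all genes). The count of 23 depended on single libraries, and so did the count over all genes, which was 2971 of 11823 in either direction. Without D0 replicate 1 or D0 replicate 2, 28 chains were called (26 higher and 2 lower), among 4963 and 5098 genes. Without VC+ replicate 1 or VC+ replicate 2, 14 chains were called, among 726 and 707 genes. Without VC- replicate 1, 6 chains were called among 58 genes. Without VC- replicate 2, 0 of all genes were called.

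Col6a2 had 724, 872 and 909.8 CPM in VC+, VC- and D0 of replicate 2, against 32.7, 27.3 and 23.3 CPM in replicate 1. The log2 difference was 4.89 (SE 0.19), with a limma adjusted p of 0.00151. Col18a1 had 358, 809 and 1381 CPM in replicate 2, against 2.20, 11.9 and 21.9 CPM in replicate 1, a log2 difference of 6.34 (SE 0.26) with a limma adjusted p of 0.00151. Col3a1 had 1316, 1801 and 2108 CPM in replicate 2, against 24.7, 82.3 and 26.5 CPM in replicate 1. Its log2 difference was 5.48 (SE 0.37), with a limma adjusted p of 0.00324. The libraries of these chains separated completely by replicate. Lama1 had 70.7, 101 and 169.6 CPM in replicate 2, against 2.01, 2.56 and 3.28 CPM in replicate 1, a log2 difference of 5.12 (SE 0.20) with a limma adjusted p of 0.00151. Lamc3 had 111, 59.6 and 23.9 CPM in replicate 2, against 0.670, 1.51 and 0.504 CPM in replicate 1. Col7a1 had 67.4, 36.8 and 105 CPM in replicate 2, against 5.07, 4.65 and 6.94 CPM in replicate 1. Col26a1 and Col13a1 also separated, and Col13a1 had only 1 to 2 reads per replicate 1 library, so its fitted difference depends on the pseudocount. The 8 chains of smallest p, which also include these 2, missed the threshold without VC- replicate 2, and Col26a1 and Lamc3 also without VC- replicate 1; over 13 alternatives their adjusted p was at most 0.0608.

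The chains that did not pass this test between replicates included Col5a3, Col11a2, Col2a1, Col16a1, Col14a1, Col9a1, Col6a4 and Lama4. They include 3 of the 4 FACIT chains. The FACIT sum was 298, 273 and 312 CPM in VC+, VC- and D0 of replicate 2, against 463, 337 and 292 CPM in replicate 1. That of the multiplexins Col15a1 and Col18a1 was 359.6, 812 and 1386 CPM, against 2.30, 12.6 and 23.2 CPM. Col16a1 had 236, 218 and 260.4 CPM in replicate 2, against 421, 313 and 264 CPM in replicate 1.

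Markers of fibroblasts, endothelial cells and microglia were higher in replicate 2, as most chains were. All 8 oligodendrocyte lineage markers were lower in replicate 2 in all 3 groups. The mural cell sums overlapped, but 5 of 7 mural markers were higher in replicate 2 in all 3 groups (32.5% of all genes). The 15 fibroblast and meningeal markers summed to 1805 to 2828 CPM in the replicate 2 libraries and 134 to 223 CPM in the replicate 1 libraries, 14 of 15 were higher in replicate 2 in all 3 groups, and Ogn had 0 reads in every replicate 1 library. Of these markers Fn1 had 430, 924 and 973 CPM in VC+, VC- and D0 of replicate 2, against 99.0, 85.1 and 96.0 CPM in replicate 1. The 9 endothelial markers measured summed to 25.0 to 59.1 CPM in replicate 2 and 5.46 to 8.23 CPM in replicate 1, where Cdh5, Tie1 and Emcn were at 0 reads in all libraries. The 7 mural cell markers measured, with Notch3 and Tagln at the highest CPM, summed to 231 to 546 CPM in replicate 2 and 285 to 383 CPM in replicate 1. Notch3 had 80.3, 88.8 and 456 CPM in VC+, VC- and D0 of replicate 2, against 341, 221 and 269 CPM in replicate 1. The 4 choroid plexus markers measured summed to 28.0 to 104 CPM in replicate 2 and 1.26 to 1.63 CPM in replicate 1. Of these, 2 were higher in replicate 2 in all 3 groups (32.5% of all genes). The part of fibroblasts, endothelial cells, microglia or other cells in the replicate difference of the chains was not tested.

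Genes that act on collagens and laminins were measured beside the chains. Of 26 tested genes of collagen folding, hydroxylation, processing and cross-linking, 0 passed limma in any group comparison (0.0% of all genes). Between replicates limma called 14 of the 26 higher in replicate 2 (17.4% of all genes) and 0 lower (7.7% of all genes). Between VC+ and VC-, 3 of the 26 were higher in both replicates (30.0% of all genes) and 11 lower in both (26.4% of all genes). Serpinh1, the collagen chaperone of the endoplasmic reticulum, had 143 and 678 CPM in VC+, 94.9 and 784 CPM in VC-, and 183 and 1358 CPM in D0. P4hb, the beta subunit of prolyl 4-hydroxylase, had 392 and 387 CPM in VC+, 317 and 468 CPM in VC-, and 359 and 881 CPM in D0. P4ha1, a catalytic subunit of the same enzyme, which needs vitamin C, had 38.5 and 40.0 CPM in VC+ against 67.3 and 199.6 CPM in VC-. Its groups were separate with VC+ lower, as for 7.82% of all genes. The limma adjusted p was 1.00, and DESeq2 with replicate as a term gave an adjusted p of 0.360. P4ha1 was chosen after its values were seen.

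Of 8 basement membrane partners tested, 0 passed limma in a group comparison (0.0% of all genes). Between replicates limma called 5 of them higher in replicate 2 (17.4% of all genes). Sparc, a collagen-binding glycoprotein, had 1710.2 and 3334 CPM in VC+, 1107 and 3683 CPM in VC-, and 623 and 3451 CPM in D0. Agrn, a heparan sulfate proteoglycan that binds laminin, had 839.8 and 770.5 CPM in VC+, 597 and 671 CPM in VC-, and 1306 and 1387 CPM in D0. Both differentiated groups thus lay below D0 in both replicates for Agrn. DESeq2 without a replicate term called Agrn lower in VC- than in D0 (adjusted p 3.45e-06), among 71 genes in all. In VC+ against D0 it called Agrn (adjusted p 0.00563) and Pxdn, another partner (adjusted p 0.0111), lower, among 137 genes. It called no other partner in a group comparison. Of 11 receptors of collagens and laminins tested, 0 passed limma in a group comparison (0.0% of all genes). Between replicates limma called 5 of them higher in replicate 2, against the same 17.4% of all genes. DESeq2 without a replicate term called 1 receptor, Itga6, lower in VC- than in D0 (adjusted p 3.43e-09) and higher in VC+ than in VC- (adjusted p 0.00394). Ddr1, a collagen-binding tyrosine kinase, had 466 and 494 CPM in VC+, 619.8 and 458 CPM in VC-, and 489.7 and 789 CPM in D0. Dag1, the laminin-binding dystroglycan, had 519 and 549.6 CPM in VC+, 376 and 454 CPM in VC-, and 499.9 and 863 CPM in D0. Of 12 matrix proteases and their inhibitors tested, 0 passed limma in a group comparison (0.0% of all genes). Between replicates limma called 10 of them higher in replicate 2, again against 17.4% of all genes. Mmp2, a gelatinase that degrades type IV collagen, had 38.6 and 258 CPM in VC+, 56.4 and 311 CPM in VC-, and 441 and 656 CPM in D0. Mmp15, a membrane-bound protease, had 208 and 95.8 CPM in VC+, 229 and 87.5 CPM in VC-, and 478 and 467 CPM in D0.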

How the data were processed

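RNA was sequenced from 6 libraries prepared with a TruSeq kit, per the labels' protocols. The authors deposited gene expression as CPM in a single table; the submitters' processing notes name STAR 2.5.1, edgeR 3.12.1 and the rn5 build among others, without roles, and the gene filter and counter are not given in the sources used here. Every value was a whole multiple of the value of 1 read (relative tolerance 1e-06), so whole reads were recovered for 100% of values. They amount to 60.2% to 67.7% of the library totals that the deposited CPM values imply. All columns were matched to samples.

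A gene entered the tests if 2 or more libraries had 1 CPM or more (11823 genes, all 32 chains among them), and these were fitted with limma 3.58.1 in R 4.3.3 (trend, two-sided) on log2(CPM + 0.5), all 3 groups in a fit with 3 residual degrees of freedom, and Benjamini-Hochberg adjustment over all genes at 0.05. Fold changes on this scale understate those of low genes. An exact permutation test of 2 libraries against 2 gives a p of 0.333 at best and was not run. VC+ and VC- share a replicate number and a D4 or D5 label, so a fit with replicate as a term is given beside that comparison where it changes a call. Deviations from the group mean correlated at 0.914 between VC+ and VC- over the genes tested. The replicate comparison used group and replicate as terms. Alternatives were pseudocounts of 0.1 and 2, no filter, a filter of 5 CPM, median-of-ratios rescaling, edgeR 4.0.16 (quasi-likelihood) and DESeq2 1.42.0 on the recovered reads, the replicate term, and leaving out each library. The code was tested on simulated data. Named were the 5 chains of highest mean CPM per class, the 3 of smallest p per direction and group comparison, the 8 of smallest p between replicates, and the 2 genes of highest mean CPM per pathway list; the other chains are described as well, except 1 that is not reported here. The chains, classes, lists and tests were chosen with earlier results of these data known. RefSeq promoters of GRCr8 were matched by symbol.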

Additional observations from a re-analysis of the deposited data

How the results depend on the processing

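With 2 libraries a group, the depth and the replicate difference limit what can be seen, and genes of few reads in replicate 1 (Col4a4, Col13a1, Col15a1) have no usable ratio there. The counts of chains called between groups were 0 in limma under every pseudocount, filter, rescaling, left-out library and replicate block, and in edgeR without the block. DESeq2 called 1 chain (Col5a3) in each of the 3 comparisons. With the replicate block, DESeq2 called 2 chains for VC+ against VC-, 3 for VC- against D0 (Col4a1, Lama5, Col5a3; 457 genes in all) and 6 for VC+ against D0 (Col23a1 higher, and Col4a1, Col18a1, Lama5, Col5a3, Lama1 lower; 772 genes in all), and edgeR called 1 (Col5a3, of 11 genes) for VC+ against D0. D0 shares only the replicate number with the other groups; the deviations correlated at 0.730 between VC- and D0 and 0.688 between VC+ and D0. Leaving out each library in turn gave 0 to 28 chains, and 0 to 5098 of all 11823 genes, called between replicates. It moved the medians of fibrillar collagens, other collagens and laminins between -0.96 and 1.14, -1.52 and 1.47, and -1.05 and 1.05 for VC+ against VC-, between -1.78 and 1.08, -1.22 and 1.07, and -1.88 and 0.050 for VC- against D0, and between -1.43 and 1.62, -1.65 and 1.21, and -1.41 and 0.032 for VC+ against D0, since a left-out library unbalances the replicates. The median of other collagens for VC- against D0 was -0.11 with a pseudocount of 0.1 and -0.21 with at least 5 CPM, and for VC+ against D0 -0.30 with at least 5 CPM; the cause was not tested. Leaving out a library also turned the log2 difference of Col14a1 (-0.14 to 1.54), Col15a1 (-1.74 to 0.28) and Lama5 (-1.62 to 0.52) for VC+ against VC-, and of Col23a1 (-0.65 to 4.11) and Lama4 (-2.70 to 0.050) for VC- against D0. Of the other single-chain values, 358 kept their direction and their side of the threshold, 10 became called and 10 lost the call.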

Other observations

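Subunits of a laminin-binding integrin were higher in VC+ than in VC- in both replicates, and these genes were chosen after their values were seen. Itga6, the alpha-6 integrin subunit that binds laminin, had 116 and 113 CPM in VC+ replicates 1 and 2, against 48.7 and 53.5 CPM in VC-, with a log2 difference of 1.16 (SE 0.21). Itgb4, its beta-4 partner, had 12.2 and 57.8 CPM in VC+, against 1.63 and 8.33 CPM in VC-. The limma adjusted p was 1.00 for both genes, and limma with replicate as a term called 0 genes. DESeq2 with that term gave an adjusted p of 0.00766 for Itga6 and 4.04e-07 for Itgb4, and without it 0.00394 for Itga6 and 1.00 for Itgb4. In D0, Itga6 had 146 and 179.7 CPM and Itgb4 1.01 and 7.23 CPM.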
